A study of Mus musculus with 12 samples.

Results

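The comparison of manganese added to forskolin plus dexamethasone sets primary mouse hepatocytes given all 3 agents (FDMn) against hepatocytes given forskolin and dexamethasone without manganese (FD). Its libraries were chosen by their labelled treatment and by no measured value, and they are 6 of the 12 libraries of the series, 3 in each group. The other 6 are 3 libraries of cells given forskolin, dexamethasone and insulin (FDI) and 3 of cells labelled Mock, whose values stand beside those of named genes.

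All cells were wild-type hepatocytes of the C57/Bl6J strain, freed from the liver with collagenase, plated with serum and then kept serum-free for 16 h. FDMn cells received 6 µM manganese chloride during those 16 h, and then 10 µM forskolin with 1 µM dexamethasone for 5 h. FD cells received the same 5 h of forskolin and dexamethasone after 16 h without manganese. FDI cells received 100 nM insulin for 1 h before the same forskolin and dexamethasone, and for Mock cells the labels name none of these agents. No group received manganese alone, and the labels do not say whether manganese stayed in the medium during the last 5 h. The labels speak of a single mouse and do not say whether the 3 libraries of a group are separate preparations, so p-values measure the spread between these libraries, which may be technical.

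Manganese is an essential trace metal and a cofactor of glutamine synthetase, arginase, pyruvate carboxylase and mitochondrial superoxide dismutase. Hepatocytes take it up from blood through the transporter SLC39A14 and pass it into bile through SLC30A10. Forskolin activates adenylate cyclase and so raises cyclic AMP, as glucagon does, and dexamethasone activates the glucocorticoid receptor. Together they imitate the hormones of fasting, under which the liver makes glucose and breaks down amino acids.

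Polyadenylated RNA was sequenced, and the values are TPM values, the length-corrected share of a library's transcripts scaled to a fixed total. Changes are given as FDMn minus FD on log2(TPM + 1) with their standard error, a scale on which low genes move less than their ratio, and folds are ratios of group mean TPM. Errors of mean TPM are SD over 3 libraries. In FDMn, 11003 to 11086 genes per library had at least 1 TPM, and in FD 10944 to 10983 did. Across genes, Pearson's r between libraries of a group was 0.989 to 0.991 for FDMn and 0.981 to 0.983 for FD, and genes are not independent replicates. On the second principal component, which held 12.4% of the variance, FDMn libraries lay at −9.17, −6.82 and −5.89, while FD libraries 1, 2 and 3 lay at 22.3, 29.0 and 7.98, so that FD 3 stood apart from the other FD libraries. Albumin, the main plasma protein of the liver, was at 27023 to 27728 TPM in FDMn and at 22624 to 32589 TPM in FD.

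The 20 hepatocyte markers summed to 55650 to 56260 TPM in FDMn and to 50520 to 59600 TPM in FD. Of the 20, 3 were higher, among them Foxa3 (log2 change 0.76, adjusted p = 0.0032), and 2 lower, among them Hnf4a (log2 change −0.16, adjusted p = 0.033). The Hnf4a call was lost in 8 of 15 alternative analyses. Leaving out each FDMn or FD library in turn gave 1 to 7 higher and 0 to 3 lower, with the most of both without FD 3. Over all genes 7.22% were higher and 7.9% lower. Of 12 Kupffer cell and macrophage markers 4 passed the filter on low values and none of them passed the test, with sums of 10.4 to 11.98 TPM in FDMn, all above the 6.90 to 8.94 TPM in FD. Of 12 endothelial markers 8 were tested and none passed (35.1 to 37.3 TPM in FDMn, 27.2 to 39.3 TPM in FD), and of 12 stellate cell and fibroblast markers 3 were tested and none passed (8.67 to 9.14 TPM in FDMn, 7.67 to 12.5 TPM in FD). Without FD 3, 2 endothelial markers passed as higher. None of 10 lymphocyte markers reached the filter, with Nkg7 listed at 0 in all 12 libraries. In bulk RNA, fewer cells of a type and less RNA per cell cannot be told apart.

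Manganese was accompanied by many modest changes and few large ones. Of 11544 genes with at least 1 TPM in at least 3 of the 12 libraries, 1746 (15.1%) passed limma's moderated test at an adjusted p of 0.05 (Benjamini-Hochberg over all genes tested). In FDMn 834 genes (7.22%) were higher and 912 (7.9%) were lower. A change of at least 2-fold was found for 137 genes that were higher (1.19%) and for 103 that were lower (0.892%), and the median log2 change over all tested genes was 0.0032. The 3 libraries of the groups did not overlap for 3810 genes (33.0%). FDMn libraries lay above all 9 others for 355 genes (3.08%) and below all 9 others for 758 genes (6.57%), in all 1113 genes (9.64%). For the other groups, whose tests share libraries with this one, the share of genes called higher and lower was 5.68% and 11.9% for FDMn against FDI. It was 12% and 30.6% for FDMn against Mock, 10.2% and 4.35% for FDI against FD, and 11.2% and 29.9% for FD against Mock. The counts depended on single libraries: without FDMn 1, 478 genes were higher and 540 lower, and without FDMn 2, 538 were higher.

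**Figure D1:**
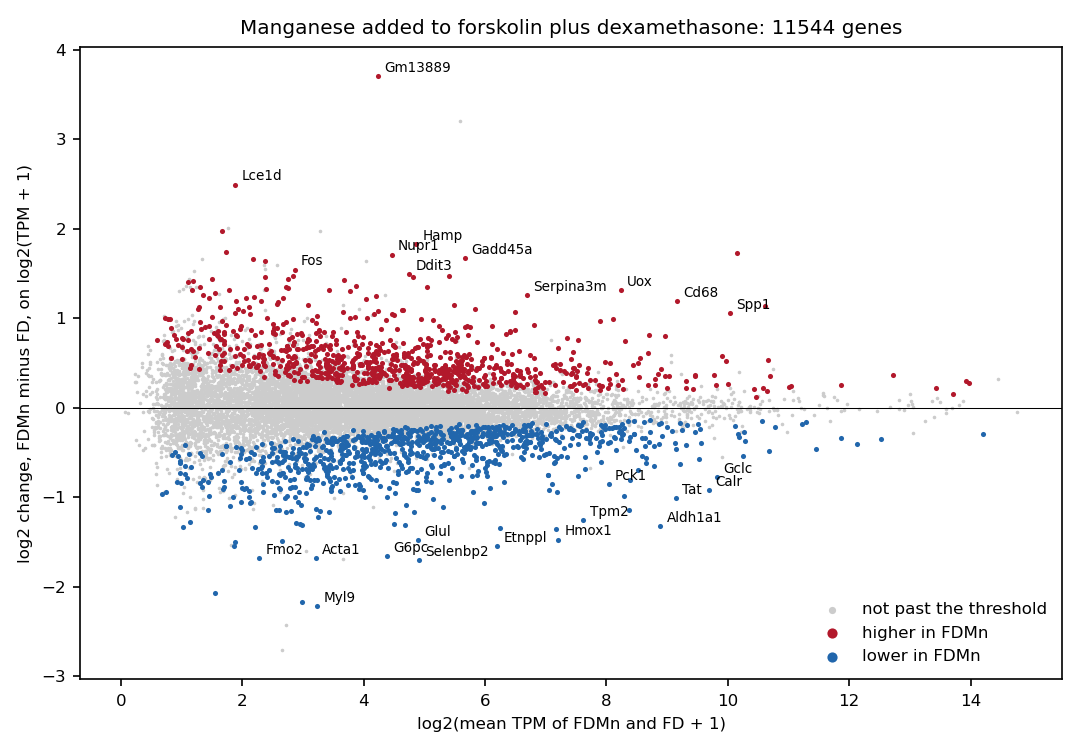
Each point is 1 of 11544 genes, with the log2 of the mean TPM of FDMn and FD plus 1 on the x axis and the log2 change, FDMn minus FD, on the y axis. Red points are the 834 genes that were higher in FDMn, blue points the 912 that were lower, and grey points the genes that did not pass, with Gm13889 at 3.71 on top and the contractile gene Myl9 at −2.22, the lowest of the genes named by rule.

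Gene lists differed in how many members passed, and in which direction. Of contractile genes 12 of 24 were lower, and of DNA replication genes 7 of 17, and 15 of 24 and 7 of 17 had all FDMn libraries below all 9 others. Of enzymes that break down amino acids 19 of 36 were lower, with a summed level that stayed above that of Mock. Of stress response genes 15 of 23 were higher, with a summed level below that of FDI. Early response genes and plasma proteins of the acute phase were more often higher than lower. Of the iron genes, those for hepcidin and the transferrin receptor were higher. Lists are described by the number of tested members past the threshold and by their median, beside 7.22% higher, 7.9% lower and a median of 0.0032 over all genes.

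**Figure D2:**
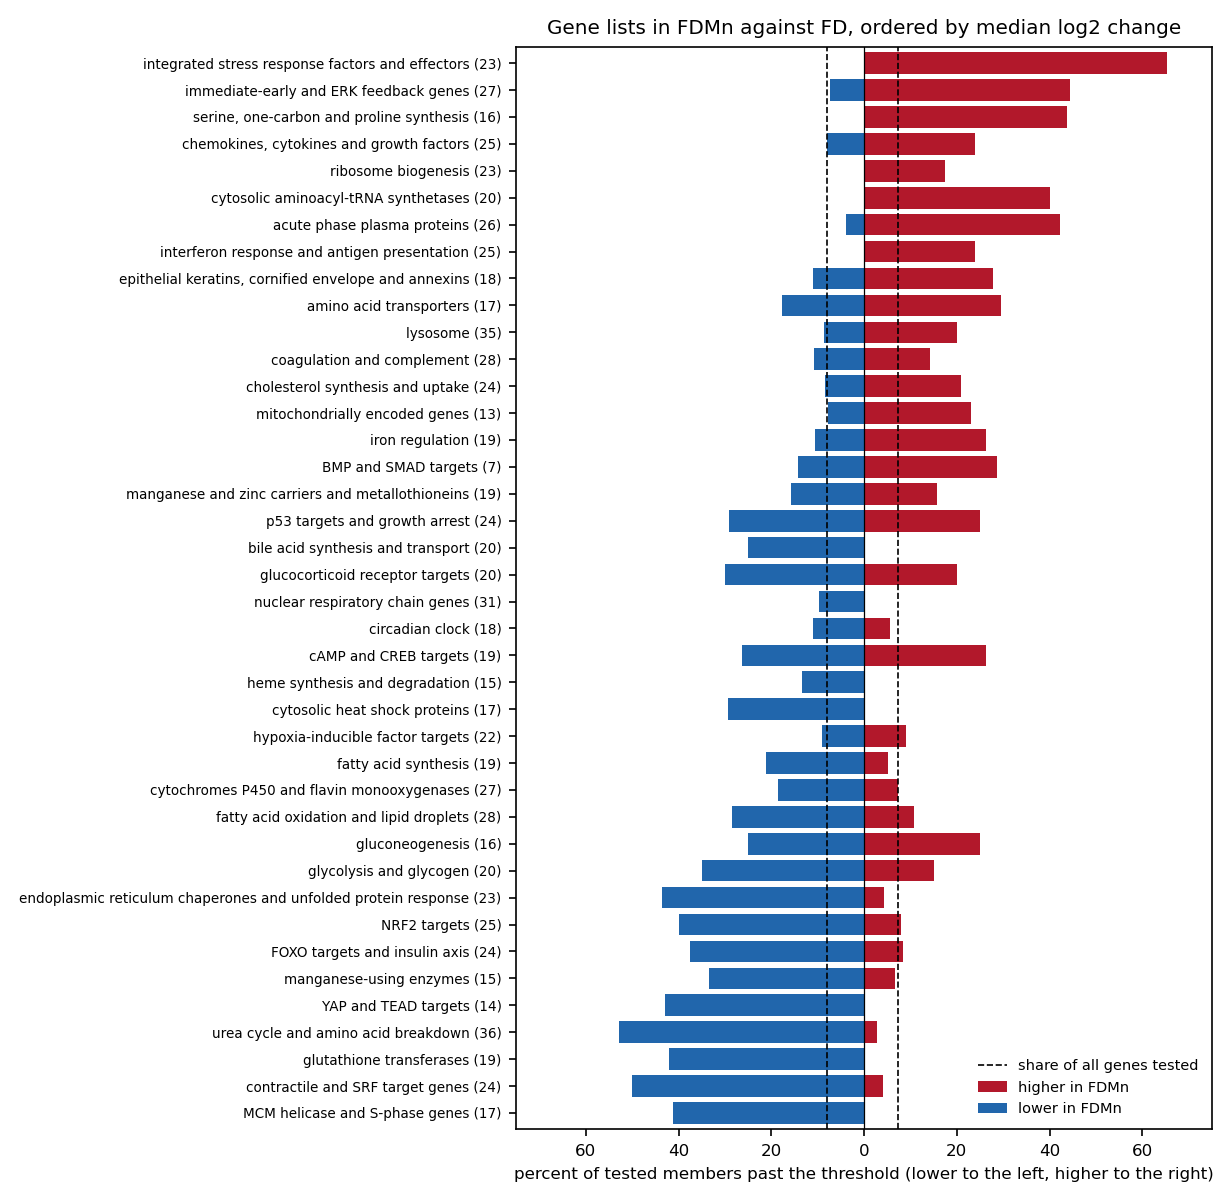
Each row is a gene list with its number of tested members in parentheses, ordered by median log2 change of FDMn against FD. Red bars to the right give the percent of members higher and blue bars to the left the percent lower, and dashed lines mark 7.22% and 7.9%, the shares over all genes; lists of stress response and early genes reach farthest right, and amino acid breakdown and contractile lists farthest left.

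The sharpest falls were in genes of actin-based contraction, most of which are known targets of serum response factor (SRF), a factor that binds the CArG box and is controlled by actin through its cofactor MRTF. Of 28 listed genes 24 were tested, and 12 were lower and 1 was higher, with a median log2 change of −0.31. For 15 of the 24, all FDMn libraries lay below all 9 others. Their summed level was 6066 to 7002 TPM in FDMn, against 7831 to 8425 TPM in FD, 10200 to 11780 TPM in FDI and 10730 to 11560 TPM in Mock. With a filter of at least 5 TPM the median was −0.15, where fewer of the low genes enter.

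Myl9, a regulatory light chain of smooth muscle myosin, had 3.08, 2.18 and 1.804 TPM in FDMn libraries, against 12.5, 15.04 and 15.9 TPM in FD libraries. Every FDMn library was far below the lowest FD library, a 6.15-fold lower mean in FDMn (log2 change −2.22 ± 0.19, adjusted p = 2.0e-05). The smooth muscle actin-binding protein calponin 1 (Cnn1) had 1.27, 2.13 and 2.12 TPM in FDMn libraries, against 9.17, 16.3 and 10.5 TPM in FD libraries. No FDMn library came near the lowest FD library, and FD 2 was the highest of its group (6.53-fold lower in FDMn, log2 change −2.17 ± 0.19, adjusted p = 2.5e-05). The skeletal muscle actin Acta1 had 4.11, 1.98 and 4.398 TPM in FDMn libraries, against 14.7, 12.6 and 11.7 TPM in FD libraries, and the groups were apart (3.72-fold lower, log2 change −1.68 ± 0.20, adjusted p = 2.1e-04). The cardiac actin Actc1 had 0.671, 0.875 and 1.25 TPM in FDMn libraries, against 3.55, 5.15 and 4.67 TPM in FD libraries, with FDMn below FD throughout (4.78-fold lower, log2 change −1.497 ± 0.17, adjusted p = 1.6e-04). These muscle genes are at low levels in hepatocytes, and Acta1 shares 4.11% of its 31-base words with other genes, mostly Actb.

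Other contractile genes fell as well, some of them more abundant and some at low levels. The tropomyosin gene Tpm2 had 107, 114 and 124 TPM in FDMn libraries, against 281, 297 and 250.2 TPM in FD libraries; the groups did not overlap (2.404-fold lower in FDMn, log2 change −1.26 ± 0.10, adjusted p = 9.7e-06). Transgelin (Tagln), an actin-binding protein of smooth muscle, had 12.2, 11.9 and 12.1 TPM in FDMn libraries, against 29.8, 33.2 and 30.7 TPM in FD libraries, and the FDMn values lay close together (2.59-fold lower, log2 change −1.299 ± 0.08, adjusted p = 3.9e-06); 62.2% of its 31-base words are shared with Gm48529 or other genes, so its level is uncertain. Myosin light chain kinase (Mylk), which phosphorylates the light chain and is outside the list, had 2.603, 1.57 and 2.75 TPM in FDMn libraries, against 8.34, 9.53 and 6.82 TPM in FD libraries (3.57-fold lower, log2 change −1.49 ± 0.17, adjusted p = 1.3e-04). Calponin 2 (Cnn2), with 7.79, 9.99 and 11.5 TPM in FDMn libraries, against 15.3, 26.4 and 20.7 TPM in FD libraries, and calponin 3 (Cnn3), with 342, 342 and 343 TPM in FDMn libraries, against 573, 542 and 508 TPM in FD libraries, were 2.13-fold and 1.58-fold lower without overlap. The actin crosslinker filamin A (Flna, 112 ± 3.62 TPM in FDMn, against 170.4 ± 1.97 TPM in FD, adjusted p = 3.2e-04) and the LIM domain protein Csrp1 (13.1 ± 1.49 TPM in FDMn, against 30.9 ± 1.83 TPM in FD, adjusted p = 4.9e-05) fell too. So did Acta2, the smooth muscle actin, at levels near the filter (0.101, 0.225 and 0.1095 TPM in FDMn and 1.03, 1.495 and 1.12 TPM in FD, adjusted p = 0.0019).

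Beta-actin (Actb) passed as lower, by 0.47 on the log2 scale (adjusted p = 0.019). It had 2445, 1926 and 2702 TPM in FDMn libraries, against 3181, 3517 and 3006 TPM in FD libraries, with no overlap. Several other genes of the cytoskeleton and its control did not pass. Srf itself had 49.2, 45.4 and 51.8 TPM in FDMn libraries, against 52.3, 48.4 and 46.5 TPM in FD libraries and did not pass (log2 change −0.01, adjusted p = 0.97), nor did its cofactor Mrtfa (−0.05), gamma-actin (Actg1, −0.05), the non-muscle myosin heavy chain Myh9 (0.04) or transgelin 2 (Tagln2, −0.04, with 255, 252 and 258 TPM in FDMn and 261, 257 and 271 TPM in FD). Vinculin (Vcl), which links actin to adhesion sites, was the only tested list member that rose (55.7 ± 3.39 TPM in FDMn, against 44.1 ± 4.44 TPM in FD, log2 change 0.33 ± 0.08, adjusted p = 0.012), and it passed neither without FDMn 3 nor in a fit of FDMn and FD libraries alone. Cav1, the caveolar coat protein, and Nexn, an actin-binding protein of muscle, were looked at after their values were seen and were 2.296-fold and 2.52-fold lower (adjusted p = 6.1e-04 and 0.0015).

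Myl9, Cnn1 and Acta1 were also lower in FDMn than in FDI and Mock. Myl9 averaged 2.36 ± 0.656 TPM in FDMn, against 19.8 ± 4.99 TPM in FDI (log2 change −2.62 ± 0.19, adjusted p = 3.9e-06) and 17.4 ± 3.397 TPM in Mock (log2 change −2.46 ± 0.19, adjusted p = 7.7e-07). Cnn1 averaged 1.84 ± 0.495 TPM in FDMn, against 19.3 ± 3.13 TPM in FDI (adjusted p = 3.2e-06) and 27.3 ± 1.95 TPM in Mock (adjusted p = 5.7e-08). Acta1 averaged 3.496 ± 1.32 TPM in FDMn, against 23.7 ± 3.56 TPM in FDI (adjusted p = 8.9e-06) and 17.2 ± 2.13 TPM in Mock (adjusted p = 5.8e-06). Cnn3 averaged 342 ± 0.566 TPM in FDMn, against 585 ± 8.17 TPM in FDI (log2 change −0.77 ± 0.05, adjusted p = 2.4e-06) and 359 ± 10.6 TPM in Mock, and its difference from Mock did not pass (log2 change −0.07 ± 0.05, adjusted p = 0.27). These comparisons share the 3 FDMn libraries and are not independent of each other. Stellate cells and fibroblasts express many of these genes. Their defining markers were low in both groups: Pdgfrb was listed at 0 in all 6 libraries, and Col1a1 and Des, which did not reach the filter, were at most 0.249 and 0.0870 TPM in FDMn and at most 0.526 and 0.0399 TPM in FD. All FDMn libraries were below all FD libraries for Col1a1, at 0.130 to 0.249 TPM against 0.317 to 0.526 TPM. The same held for Col1a2 (at most 0.168 TPM in FDMn, at least 0.1765 TPM in FD). It also held for Lum (at most 0.0224 TPM in FDMn, at least 0.0271 TPM in FD). Libraries overlapped for Col3a1, Pdgfra, Lrat, Rgs5 and Des. Of the 3 markers that were tested, Dcn had a log2 change of 0.01, Reln of −0.02 and Sparc of −0.13. The part of these cells in the fall was not tested.

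**Figure D3:**
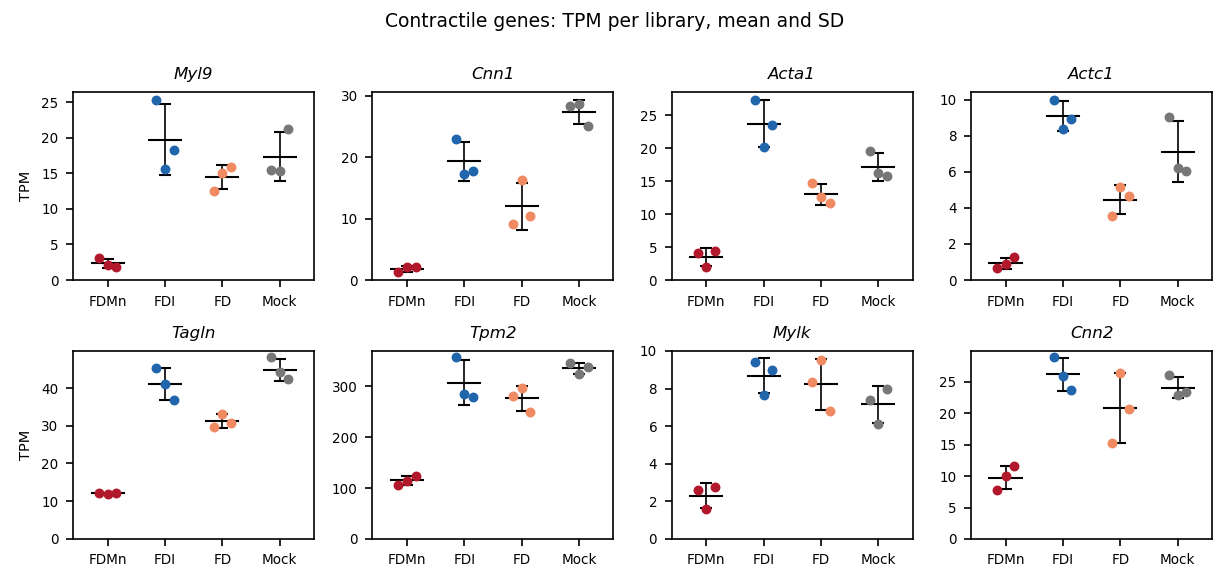
TPM of 8 contractile genes (y axes, linear, from 0) in FDMn, FDI, FD and Mock libraries, 1 point per library, with the mean as a horizontal bar and the SD as an error bar (n = 3). In each panel the 3 FDMn points lie below all other points, for Tpm2 at 107 to 124 TPM and for Myl9 at 1.80 to 3.08 TPM.

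Promoter sequences of these genes are shown because SRF's binding letters, the CArG box, stand in several of them close to the start site. The sequences are RefSeq promoters on GRCm38.p6 (250 bases before to 50 after the start), printed 5′ to 3′ on the gene's strand, with the CArG box in capitals.
Acta1 (chr8:123894804-123894883, minus strand): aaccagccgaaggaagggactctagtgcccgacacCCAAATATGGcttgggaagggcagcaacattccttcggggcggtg
Actc1 (chr2:114052878-114052957, minus strand): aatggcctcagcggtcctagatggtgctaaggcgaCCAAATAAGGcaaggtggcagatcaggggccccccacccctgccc
Cnn2 (chr10:79988509-79988588, plus strand): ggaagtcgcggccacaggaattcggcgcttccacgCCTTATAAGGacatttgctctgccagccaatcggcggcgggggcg
Myl9 (chr2:156775268-156775347, plus strand): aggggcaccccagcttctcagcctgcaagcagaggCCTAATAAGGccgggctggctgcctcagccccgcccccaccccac
The box, which is 10 bases long and was sought on both strands, lies upstream of the start in all 4. It was present in 1.63% of 32851 promoters and in 1.57% of the 8817 tested genes that had one. Among genes at least 2-fold lower in FDMn, 6 of 71 with a promoter held it (8.45%), namely Acta1, Actc1, Cnn2, Ica1, Myl9 and Vil1. Among genes at least 2-fold higher, 1 of 106 did (0.943%), Lmcd1. In the contractile list 9 of 24 promoters held it (37.5%), 4 of them in the 10 lower members that had a promoter. These 4 are the ones printed above. The remaining promoters with the box were those of Srf, Actg1, Myl6 and Fhl2, which did not pass, and of Vcl, which was higher. The box was therefore not confined to members that fell. These are matches of letters and do not show binding.

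YAP and TEAD are transcription regulators known, like MRTF, to respond to cell tension. Of 14 tested targets of 17 listed, 6 were lower and none higher, with a median of −0.27, and 6 lay below all 9 other libraries. The muscle ankyrin repeat gene Ankrd1 had 3.81, 4.68 and 5.46 TPM in FDMn libraries, against 10.5, 9.22 and 9.83 TPM in FD libraries, with no overlap (2.12-fold lower, log2 change −0.95 ± 0.10, adjusted p = 1.1e-04). The matrix-associated growth factor genes Ccn2 (209, 190.3 and 202 TPM in FDMn and 258, 289 and 262 TPM in FD) and Ccn1 (104, 93.8 and 110.3 TPM in FDMn and 135, 125 and 130.1 TPM in FD) were 1.35-fold and 1.26-fold lower, and the growth factor Tgfb2 (4.49, 3.18 and 4.31 TPM in FDMn and 8.32, 8.36 and 6.59 TPM in FD) was 1.94-fold lower. Each of these genes was higher in FDI and in Mock than in FDMn, Ccn2 at 644 ± 26.7 TPM in FDI and 306 ± 23.3 TPM in Mock (adjusted p = 5.9e-08 and 1.7e-05). Yap1 (log2 change −0.24) and its partner Wwtr1 (−0.07) did not pass.

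Replication licensing genes were low in all groups. Of 17 tested genes of 20 listed, 7 were lower and none higher, with a median of −0.49, and 7 lay below all 9 other libraries. All 6 tested subunits of the MCM2 to MCM7 helicase, which opens DNA at replication origins, were among those that fell. Mcm5 had 2.998, 3.003 and 3.07 TPM in FDMn libraries, against 7.36, 10.1 and 6.95 TPM in FD libraries, and the FDMn values lay close together (2.69-fold lower, log2 change −1.17 ± 0.15, adjusted p = 3.9e-04). Mcm4 had 3.48, 3.17 and 3.098 TPM in FDMn libraries, against 7.35, 5.55 and 6.83 TPM in FD libraries (2.02-fold lower, adjusted p = 3.1e-04). Mcm2 had 7.298, 10.2 and 10.5 TPM in FDMn libraries, against 16.2, 20.3 and 13.6 TPM in FD libraries (1.79-fold lower, adjusted p = 0.0077). Mcm3, Mcm6 and Mcm7 were 1.64-fold, 1.41-fold and 1.48-fold lower, and the clamp loader subunit Rfc3 1.57-fold. The sliding clamp Pcna (−0.04) and cyclin D1 (Ccnd1, −0.07) did not pass. The proliferation markers Mki67 and Top2a did not reach the filter. Without FD 1, 1 gene of the list passed as higher.

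Genes of glucose output went both ways. The phosphatase gene G6pc, whose product frees glucose from its phosphate in the last step of glucose output, had 10.1, 8.46 and 8.58 TPM in FDMn libraries, against 33.3, 26.1 and 32.97 TPM in FD libraries. The groups were well apart (3.397-fold lower, log2 change −1.66 ± 0.14, adjusted p = 2.1e-05). Pck1, the cytosolic phosphoenolpyruvate carboxykinase that starts gluconeogenesis from oxaloacetate, had 178, 200.1 and 179 TPM in FDMn libraries, against 373, 299 and 339 TPM in FD libraries (1.82-fold lower, log2 change −0.86 ± 0.10, adjusted p = 2.5e-04). In FDI, G6pc was at 2.96 ± 0.421 TPM and Pck1 at 127 ± 9.33 TPM, so that FDMn lay above insulin-treated cells for both (adjusted p = 7.2e-05 and 0.0038). In Mock they were at 0.257 ± 0.179 TPM and 0.343 ± 0.171 TPM.

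Of the 16 gluconeogenesis genes, all tested, 4 were lower and 4 were higher, with a median of −0.16. The 4 that fell were Pck1, G6pc, the cytosolic aspartate aminotransferase Got1 (488, 490.3 and 423 TPM in FDMn and 712, 709.5 and 738 TPM in FD, log2 change −0.63 ± 0.06, adjusted p = 6.2e-05) and pyruvate carboxylase (Pcx, 41.2, 37.2 and 35.4 TPM in FDMn and 50.8, 42.8 and 50.6 TPM in FD, log2 change −0.33 ± 0.08, adjusted p = 0.017). The Pcx call was lost in 4 of 15 alternative analyses. Those that rose were the mitochondrial carboxykinase Pck2 (22.2, 20.7 and 18.6 TPM in FDMn and 15.4, 12.2 and 14.7 TPM in FD, log2 change 0.51 ± 0.11, adjusted p = 0.0073) and the enzymes Eno1, Tpi1 and Pgk1, which glycolysis also uses, at 1.21-fold, 1.28-fold and 1.28-fold. The coactivator Ppargc1a missed the threshold (log2 change −0.44, adjusted p = 0.057), and Fbp1 did not pass (0.03).

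Genes of amino acid breakdown were more often lower than higher. Of 36 genes, all tested, 19 were lower and 1 was higher, with a median of −0.30; without FDMn 1, 12 were lower. The summed level was 3709 to 3868 TPM in FDMn, 4783 to 5367 TPM in FD, 4134 to 4231 TPM in FDI and 1459 to 1520 TPM in Mock. Cps1, the mitochondrial carbamoyl phosphate synthetase that feeds ammonia into the urea cycle, had 78.1, 83.1 and 77.9 TPM in FDMn libraries, against 236, 177 and 209 TPM in FD libraries. Even the lowest FD library was far above the highest FDMn library (2.598-fold lower, log2 change −1.36 ± 0.13, adjusted p = 4.3e-05). Tyrosine aminotransferase (Tat), a classical glucocorticoid target, had 345, 390.3 and 386 TPM in FDMn libraries, against 859.5, 648 and 764 TPM in FD libraries (2.02-fold lower, log2 change −1.01 ± 0.11, adjusted p = 1.1e-04). Both Etnppl and Mat1a are outside the list. Etnppl, which breaks down phosphoethanolamine, had 36.6, 36.5 and 36.2 TPM in FDMn libraries, against 124, 100.4 and 102 TPM in FD libraries (2.98-fold lower, log2 change −1.54 ± 0.10, adjusted p = 3.9e-06). Mat1a, the liver enzyme that makes S-adenosylmethionine, had 191, 217 and 205 TPM in FDMn libraries, against 513, 406 and 440.3 TPM in FD libraries (2.22-fold lower, log2 change −1.14 ± 0.09, adjusted p = 1.5e-05).

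Other urea cycle genes were lower too. Argininosuccinate synthase (Ass1) had 633, 657 and 652 TPM in FDMn libraries, against 927, 779 and 852 TPM in FD libraries (1.32-fold lower). Ornithine transcarbamylase (Otc) had 16.2, 17.4 and 15.5 TPM in FDMn libraries, against 18.95, 22.3 and 22.04 TPM in FD libraries (1.29-fold lower). Arginase 1 (Arg1) had 59.5, 69.97 and 65.9 TPM in FDMn libraries, against 96.8, 82.6 and 85.1 TPM in FD libraries (1.35-fold lower, adjusted p = 0.011). Tryptophan dioxygenase (Tdo2) had 57.8, 57.97 and 51.6 TPM in FDMn libraries, against 109.8, 91.9 and 99.7 TPM in FD libraries (1.801-fold lower, log2 change −0.84 ± 0.13, adjusted p = 9.7e-04). Kynureninase (Kynu), which acts further down the tryptophan pathway, was 1.89-fold lower, and the lysine-degrading enzyme Aass 1.54-fold. The alanine-glyoxylate aminotransferase Agxt was the only tested member that rose (6.899, 10.2 and 7.56 TPM in FDMn and 4.86, 4.29 and 5.31 TPM in FD, log2 change 0.65 ± 0.19, adjusted p = 0.038), and of the fits that left out a library it passed only in the one without FD 3.

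Side by side with the other groups, the level in FDMn lay between FD and Mock for all of G6pc, Pck1, Cps1, Tat, Etnppl and Mat1a. Cps1 was at 79.7 ± 2.94 TPM in FDMn, against 34.8 ± 4.18 TPM in FDI (log2 change 1.18 ± 0.13, adjusted p = 8.6e-05) and 3.76 ± 0.714 TPM in Mock (log2 change 4.09 ± 0.13, adjusted p = 2.6e-10). For Tat, FDMn was at 374 ± 24.8 TPM and FDI at 346 ± 21.9 TPM, and this difference did not pass (log2 change 0.11 ± 0.11, adjusted p = 0.53). For Etnppl, FDMn was at 36.4 ± 0.235 TPM and FDI at 44.7 ± 5.25 TPM, a difference that did not pass either (log2 change −0.28 ± 0.10, adjusted p = 0.075). Kynu differed in pattern, with 9.81 ± 1.59 TPM in FDMn, against 16.97 ± 1.12 TPM in FDI and 23.3 ± 1.396 TPM in Mock, so that manganese-treated cells were the lowest of the 4 groups (adjusted p = 0.0012 against FDI and 8.1e-06 against Mock).

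**Figure D4:**
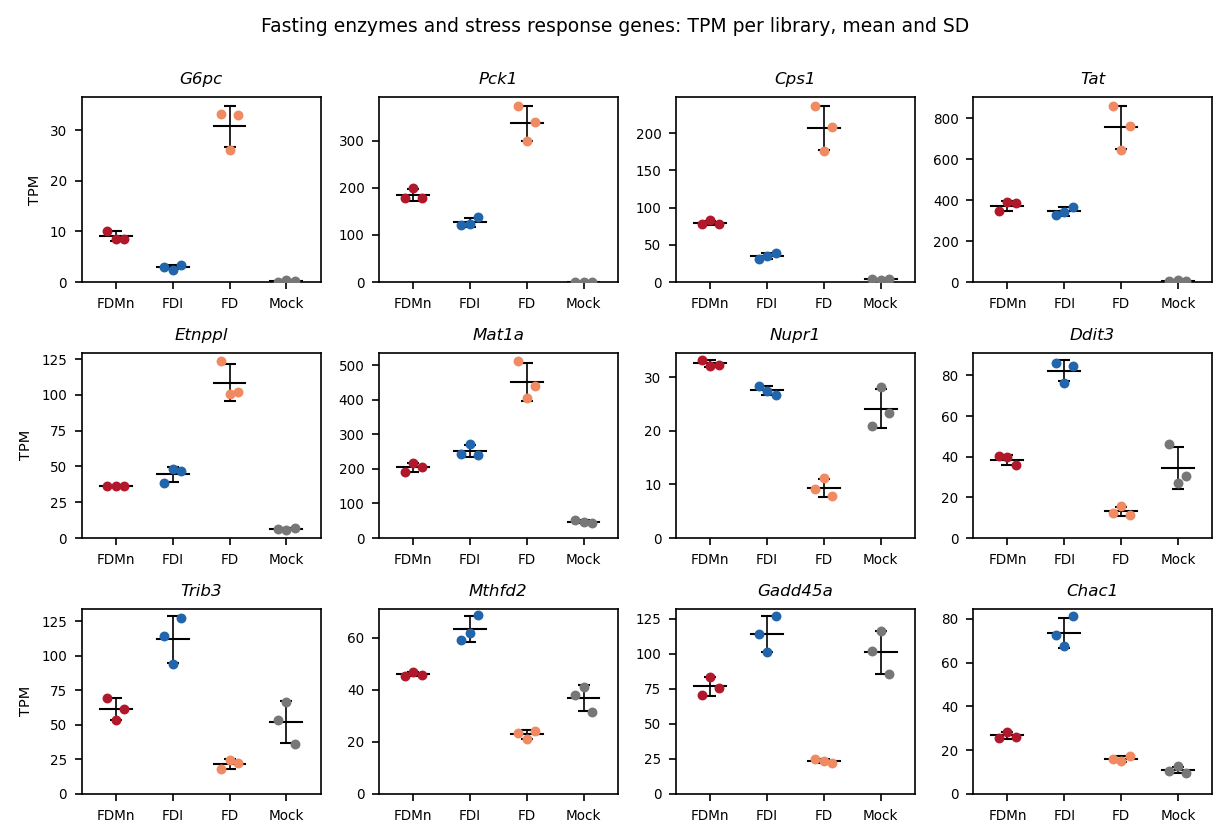
TPM of 6 fasting enzymes and 6 stress response genes (y axes, linear, from 0) in FDMn, FDI, FD and Mock libraries, 1 point per library with mean and SD (n = 3). G6pc, Pck1, Cps1, Tat, Etnppl and Mat1a are highest in FD and lowest in Mock with FDMn between them, while Nupr1, Ddit3, Trib3, Mthfd2 and Gadd45a are lowest in FD.

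Most genes of the integrated stress response rose. In this response the factor ATF4 is translated when initiation of protein synthesis is slowed, and it drives genes of amino acid supply and of cell fate through C/EBP-ATF elements. Of 23 genes, all tested, 15 were higher and none lower, with a median of 0.42; without FD 3, 1 passed as lower. Their summed level was 1961 to 2055 TPM in FDMn, 1490 to 1530 TPM in FD, 2305 to 2574 TPM in FDI and 1533 to 1742 TPM in Mock.

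Nupr1, a small stress-induced chromatin protein, had 33.3, 32.2 and 32.3 TPM in FDMn libraries, against 9.14, 11.2 and 7.802 TPM in FD libraries. FDMn libraries lay close together and above all 9 others (3.48-fold higher, log2 change 1.71 ± 0.12, adjusted p = 6.9e-06). Ddit3, which encodes the factor CHOP, had 40.2, 39.8 and 35.8 TPM in FDMn libraries, against 12.4, 15.8 and 11.3 TPM in FD libraries (2.94-fold higher, log2 change 1.495 ± 0.17, adjusted p = 1.4e-04). The pseudokinase Trib3, which restrains ATF4 and AKT signalling, had 69.2, 53.7 and 61.2 TPM in FDMn libraries, against 17.96, 24.7 and 22.1 TPM in FD libraries (2.84-fold higher, log2 change 1.47 ± 0.20, adjusted p = 4.6e-04). Of the factors themselves, Atf4 had 235, 232 and 226 TPM in FDMn libraries, against 179, 179 and 172 TPM in FD libraries (1.31-fold higher, log2 change 0.39 ± 0.07, adjusted p = 0.0019). Atf3 had 41.95, 55.9 and 40.2 TPM in FDMn libraries, against 30.2, 21.8 and 30.3 TPM in FD libraries (1.68-fold higher, log2 change 0.73 ± 0.17, adjusted p = 0.012). Atf5 rose 1.35-fold, Cebpb 1.33-fold and Cebpg 1.36-fold. The glutathione-degrading enzyme Chac1 had 25.7, 28.5 and 26.0 TPM in FDMn libraries, against 15.9, 14.9 and 17.3 TPM in FD libraries (1.67-fold higher, log2 change 0.70 ± 0.10, adjusted p = 8.0e-04). Fgf21, a fasting hormone of the liver, was at 1.11, 0.696 and 0.844 TPM in FDMn and was listed at 0 in FD 1 and FD 2, with 0.362 TPM in FD 3 (adjusted p = 0.022). Gdf15 (−0.02) and Ddit4 (0.01) did not pass.

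For several of these genes FDMn cells were below FDI cells. Ddit3 was at 38.6 ± 2.45 TPM in FDMn, against 82.2 ± 5.15 TPM in FDI (log2 change −1.07 ± 0.17, adjusted p = 0.0011) and 34.6 ± 10.4 TPM in Mock (log2 change 0.19 ± 0.17, adjusted p = 0.39). Chac1 was at 26.7 ± 1.53 TPM in FDMn, against 73.7 ± 6.91 TPM in FDI (log2 change −1.43 ± 0.10, adjusted p = 3.9e-06) and 10.9 ± 1.53 TPM in Mock (log2 change 1.23 ± 0.10, adjusted p = 1.7e-06). Atf3 was at 46.02 ± 8.61 TPM in FDMn, against 107 ± 6.397 TPM in FDI and 26.5 ± 5.52 TPM in Mock (adjusted p = 4.0e-04 and 0.0025). Nupr1 did not pass against FDI (log2 change 0.24 ± 0.12, adjusted p = 0.21). The activin subunit gene Inhbe, which is on the cytokine list, had 4.601, 4.595 and 4.14 TPM in FDMn libraries, against 1.54, 1.51 and 1.71 TPM in FD libraries (2.802-fold higher, log2 change 1.07 ± 0.11, adjusted p = 8.0e-05), with 6.82 ± 0.596 TPM in FDI.

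The C/EBP-ATF element, which binds ATF4 with its partners, is shown in the promoters of 4 of these genes, as letters TGATGNAA on either strand, in capitals.
Asns (chr6:7693210-7693269, minus strand): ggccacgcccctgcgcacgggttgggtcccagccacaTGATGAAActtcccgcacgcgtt
Atf3 (chr1:191183410-191183469, minus strand): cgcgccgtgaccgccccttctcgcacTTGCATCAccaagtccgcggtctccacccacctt
Chac1 (chr2:119351023-119351082, plus strand): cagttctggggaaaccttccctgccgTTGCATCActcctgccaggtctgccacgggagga
Nupr1 (chr7:126625547-126625606, minus strand): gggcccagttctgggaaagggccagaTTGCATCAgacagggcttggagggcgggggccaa
It was found in 3.97% of 32851 promoters and in 2.76% of tested genes. Of genes at least 2-fold higher in FDMn, 13 of 106 held it (12.3%), among them Trib3, Nupr1, Fgf21 and Inhbe. Of genes at least 2-fold lower, 1 of 71 did (1.41%), G6pc. In the stress response list it was present in 9 of 19 promoters (47.4%) and in 6 of the 12 higher members that had one (50.0%). The remaining promoters with the element were those of Vldlr, Jdp2 and Slc7a11, which did not pass. The element was therefore not confined to members that rose. It overlapped no other motif counted here. These too are matches of letters that do not show binding, and no test was made on these shares.

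Genes that supply amino acids or charge tRNAs were higher or did not pass. Of 16 genes of serine, one-carbon and proline synthesis 7 were higher and none lower, with a median of 0.24, and of 20 cytosolic aminoacyl-tRNA synthetases 8 were higher and none lower, with a median of 0.15; without FD 3, 1 gene of each list passed as lower. The mitochondrial folate enzyme Mthfd2 had 45.3, 46.8 and 45.9 TPM in FDMn libraries, against 23.4, 21.1 and 24.1 TPM in FD libraries (2.01-fold higher, log2 change 0.98 ± 0.10, adjusted p = 5.1e-05). Cystathionine gamma-lyase (Cth), which makes cysteine, had 108, 109 and 106 TPM in FDMn libraries, against 57.8, 58.7 and 62.8 TPM in FD libraries (1.803-fold higher, log2 change 0.84 ± 0.07, adjusted p = 2.2e-05). Asparagine synthetase (Asns) had 86.7, 84.6 and 94.9 TPM in FDMn libraries, against 52.1, 56.7 and 59.3 TPM in FD libraries (1.58-fold higher, log2 change 0.65 ± 0.11, adjusted p = 0.0021). The serine synthesis enzymes Psph and Psat1 rose 1.61-fold and 1.23-fold, and the proline synthesis enzyme Aldh18a1 1.71-fold. Among the synthetases the asparagine enzyme Nars rose most clearly, with 421, 435 and 429.7 TPM in FDMn libraries, against 299, 323 and 288 TPM in FD libraries (log2 change 0.50 ± 0.06, adjusted p = 1.3e-04).

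Amino acid transporters split, with 5 of 17 tested genes higher and 3 lower, and a median of 0.079; without FDMn 1, 1 was lower. Slc3a2, the shared heavy chain of several carriers, had 466, 453 and 422 TPM in FDMn libraries, against 309, 288 and 318 TPM in FD libraries (1.47-fold higher, log2 change 0.55 ± 0.05, adjusted p = 4.4e-05). Its light chain partner Slc7a5 had 11.3, 9.93 and 11.3 TPM in FDMn libraries, against 6.24, 6.42 and 4.47 TPM in FD libraries (1.898-fold higher, log2 change 0.83 ± 0.13, adjusted p = 0.0011). The cationic amino acid carrier Slc7a1 had 4.17, 4.05 and 3.83 TPM in FDMn libraries, against 1.59, 1.61 and 1.98 TPM in FD libraries (2.33-fold higher, log2 change 0.88 ± 0.12, adjusted p = 5.7e-04). Slc7a2, the main cationic carrier of liver, had 81.3, 86.97 and 86.6 TPM in FDMn libraries, against 121, 108 and 122 TPM in FD libraries (1.38-fold lower, log2 change −0.46 ± 0.11, adjusted p = 0.013). The liver carrier Slc38a4 fell as well, with 283, 313 and 298 TPM in FDMn libraries, against 451, 393 and 405 TPM in FD libraries (1.396-fold lower, log2 change −0.48 ± 0.06, adjusted p = 4.0e-04). Slc7a2 was at 10.5 ± 0.7001 TPM in Mock and Slc7a1 at 10.1 ± 1.52 TPM in FDI.

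Iron genes changed in both directions. Of 19 tested genes of 21 listed, 5 were higher and 2 lower; without any single FDMn library or without FD 2, 3 were higher, and without FDMn 2, FD 1 or FD 2, 1 was lower. Hamp encodes hepcidin, the liver hormone that blocks iron export from cells, and lies at chromosome 7, 30942368 to 30944032, on GRCm38 (GENCODE M21). It had 44.04, 48.4 and 40.5 TPM in FDMn libraries, against 13.95, 10.1 and 11.5 TPM in FD libraries, and the lowest FDMn library was above every other library of the series (3.74-fold higher, log2 change 1.83 ± 0.12, adjusted p = 4.7e-06). The transferrin receptor Tfrc, through which cells take up iron, had 34.4, 39.5 and 46.5 TPM in FDMn libraries, against 14.95, 13.8 and 12.8 TPM in FD libraries, again above all 9 other libraries (2.901-fold higher, log2 change 1.46 ± 0.12, adjusted p = 1.5e-05). Slc40a1, which encodes ferroportin, the iron exporter that hepcidin removes from the cell surface, had 8.91, 9.15 and 9.89 TPM in FDMn libraries, against 17.6, 18.7 and 17.2 TPM in FD libraries (1.91-fold lower, log2 change −0.87 ± 0.09, adjusted p = 9.6e-05). The hemochromatosis gene Hfe, which acts upstream of hepcidin, was 1.43-fold lower (log2 change −0.49 ± 0.13, adjusted p = 0.022), and the plasma iron carrier transferrin (Trf, 11930, 11740 and 11840 TPM in FDMn and 10410, 9703 and 10420 TPM in FD) and the plasma ferroxidase ceruloplasmin (Cp, 1787, 1932 and 1846 TPM in FDMn and 1444, 1428 and 1485 TPM in FD) were 1.16-fold and 1.28-fold higher. A share of 33.7% of the 31-base words of Hamp is also found in Hamp2 or other genes, and Hamp2 did not reach the filter.

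Genes of the iron sensor proteins did not pass: Ireb2 had a log2 change of −0.03, Aco1 of −0.14 and Fbxl5 of −0.01, and the ferritin chains Fth1 and Ftl1 were at −0.01 and 0.04. Hepcidin is also known as a target of BMP and SMAD signalling. Of 7 tested genes of that list of 12, Hamp and Id3 (11.1, 11.2 and 9.58 TPM in FDMn and 4.78, 2.97 and 5.27 TPM in FD, log2 change 1.14 ± 0.17, adjusted p = 8.2e-04) were higher and Id2 (84.4, 89.03 and 89.7 TPM in FDMn and 109, 105 and 129 TPM in FD, log2 change −0.37 ± 0.08, adjusted p = 0.0061) was lower, while the feedback inhibitor Smad7 (4.65, 4.03 and 3.25 TPM in FDMn and 2.86, 3.81 and 3.47 TPM in FD, log2 change 0.18, adjusted p = 0.55) did not pass. Id1 did not reach the filter.

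Heme oxygenase 1 (Hmox1), which breaks heme down and releases its iron, had 67.7, 82.2 and 76.8 TPM in FDMn libraries, against 284, 211 and 157 TPM in FD libraries. FD libraries were widely spread and all above the FDMn libraries (2.88-fold lower, log2 change −1.48 ± 0.17, adjusted p = 1.8e-04). FDMn was at 75.6 ± 7.29 TPM, against 244 ± 37.6 TPM in FDI and 78.9 ± 1.401 TPM in Mock, and the difference from Mock did not pass (log2 change −0.07 ± 0.17, adjusted p = 0.79). Of the 15 heme genes tested, the other that fell was Uros, an enzyme of heme synthesis (log2 change −0.52, adjusted p = 0.049), a call that was lost in 9 of 15 alternative analyses. The rate-limiting Alas1 (−0.13) and the last enzyme Fech (−0.10) did not pass.

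**Figure D5:**
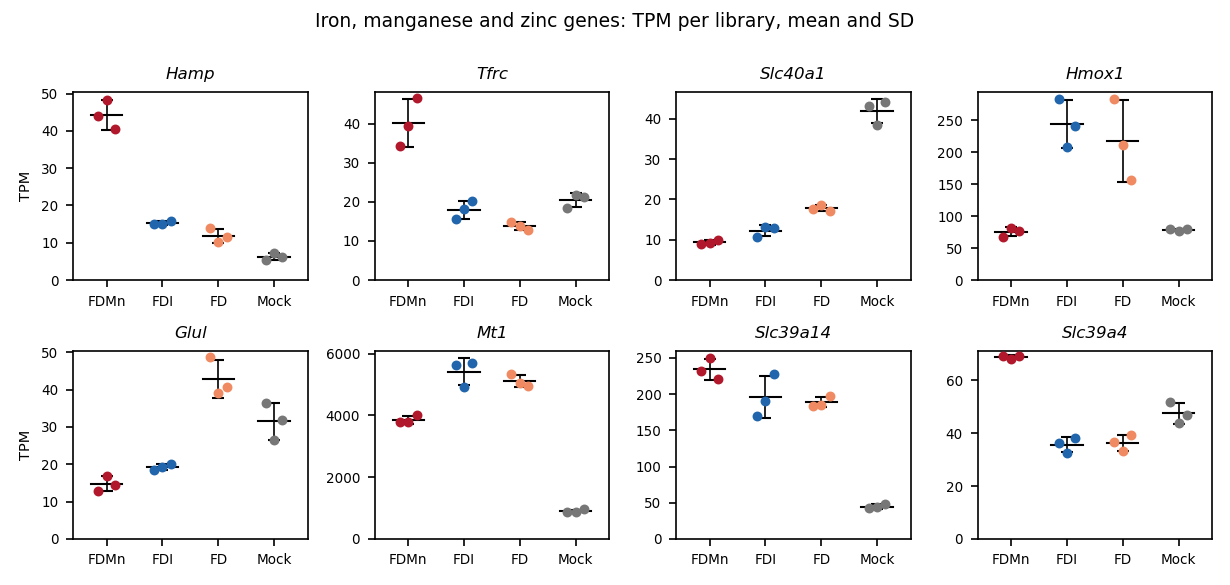
TPM of 8 genes of iron, manganese and zinc biology (y axes, linear, from 0) in FDMn, FDI, FD and Mock libraries, 1 point per library with mean and SD (n = 3). For Hamp, Tfrc and Slc39a4 the FDMn points lie above all others, with Hamp at 40.5 to 48.4 TPM, and for Glul and Slc40a1 they lie below all FD points.

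Genes of manganese and zinc transport went both ways. Of 19 tested genes of 20 listed, 3 were higher and 3 lower, with a median of −0.031; without any single FDMn library or without FD 1, 1 was higher, and without FDMn 1, FDMn 2 or FD 1, 1 was lower. The zinc importer Slc39a4 had 69.2, 68.3 and 69.3 TPM in FDMn libraries, against 36.7, 33.3 and 39.4 TPM in FD libraries, all FDMn libraries above all 9 others (1.89-fold higher, log2 change 0.90 ± 0.08, adjusted p = 3.2e-05). Slc39a14, the manganese and zinc importer of hepatocytes, had 232, 249.6 and 222 TPM in FDMn libraries, against 184, 186 and 197 TPM in FD libraries (1.24-fold higher, log2 change 0.31 ± 0.09, adjusted p = 0.047), and this call was lost in 7 of 15 alternative analyses. Slc39a8, a related importer, had 6.01, 6.58 and 6.38 TPM in FDMn libraries, against 6.89, 5.91 and 6.23 TPM in FD libraries, with overlapping groups (−0.00, adjusted p = 0.99). The exporter Slc30a10 was below the filter, at 0.194 to 0.432 TPM in FDMn and 0.210 to 0.338 TPM in FD. The Golgi manganese and calcium pump Atp2c1 was 1.21-fold lower (log2 change −0.27 ± 0.07, adjusted p = 0.026). The zinc exporter Slc30a1 was 1.56-fold lower (log2 change −0.60 ± 0.16, adjusted p = 0.023, lost in 5 of 15 alternative analyses).

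No metallothionein gene tested, each encoding a small protein that binds zinc and copper, passed as higher. Mt1 had 3773, 3781 and 4010 TPM in FDMn libraries, against 5352, 5046 and 4967 TPM in FD libraries, with no overlap (1.33-fold lower, log2 change −0.41 ± 0.06, adjusted p = 0.0011), a call lost under quantile normalization. Mt2 had 1693, 1829 and 1788 TPM in FDMn libraries, against 1806, 1707 and 2112 TPM in FD libraries, with overlap (log2 change −0.08 ± 0.10, adjusted p = 0.65). The metal response element TGCNCNC was in 12 of the 16 promoters found for the transport list, but also in 51.0% of 32851 promoters and in 63.6% of tested genes.

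Of the enzymes that use manganese, 1 passed as higher. Of 15 tested of 16 listed, 5 were lower and 1 was higher, with a median of −0.23. Glutamine synthetase (Glul) had 12.9, 16.95 and 14.4 TPM in FDMn libraries, against 48.6, 38.99 and 40.8 TPM in FD libraries. All FD libraries were far above all FDMn libraries (2.899-fold lower, log2 change −1.48 ± 0.13, adjusted p = 2.0e-05). It averaged 14.8 ± 2.03 TPM in FDMn, 19.2 ± 0.734 TPM in FDI and 31.5 ± 4.98 TPM in Mock; the difference from FDI did not pass (log2 change −0.37 ± 0.13, adjusted p = 0.064) and that from Mock did (log2 change −1.04 ± 0.13, adjusted p = 3.7e-05). Glul shares 20.4% of its 31-base words with other genes. Arg1, Pcx, Pck1 and the aminopeptidase Xpnpep1 (1.202-fold lower) were the others that fell. Mitochondrial superoxide dismutase (Sod2), the manganese enzyme that removes superoxide, had 180, 182 and 181 TPM in FDMn libraries, against 181, 175 and 168 TPM in FD libraries, with overlap (log2 change 0.05 ± 0.05, adjusted p = 0.55).

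Early response genes and genes that restrain ERK signalling were more often higher than lower. Of 27 tested genes of 30 listed, 12 were higher and 2 lower, with a median of 0.36; without FDMn 1 or FDMn 3, 1 was lower. Fos, a subunit of the factor AP-1, had 9.58, 12.9 and 7.09 TPM in FDMn libraries, against 1.997, 2.82 and 3.201 TPM in FD libraries. The lowest FDMn library was above the highest FD library (3.69-fold higher, log2 change 1.54 ± 0.22, adjusted p = 6.6e-04). Fosl1, another AP-1 subunit, had 50.0, 42.02 and 46.6 TPM in FDMn libraries, against 12.8, 19.3 and 21.8 TPM in FD libraries (2.57-fold higher, log2 change 1.34 ± 0.20, adjusted p = 8.2e-04), although 54.5% of its 31-base words are shared with the overlapping gene Ccdc85b or others. Fosb had 3.201, 3.21 and 3.34 TPM in FDMn libraries, against 0.636, 1.24 and 1.04 TPM in FD libraries (3.34-fold higher, log2 change 1.12 ± 0.16, adjusted p = 7.2e-04). The dual-specificity phosphatases Dusp4 and Dusp5, which inactivate ERK in the nucleus, had 11.7, 12.4 and 10.5 TPM and 12.5, 11.1 and 10.5 TPM in FDMn, against 4.35, 5.63 and 5.53 TPM and 4.395, 5.74 and 7.65 TPM in FD (2.23-fold and 1.92-fold higher, adjusted p = 0.0012 and 0.0034). The ERK-induced factor Etv5 rose 2.36-fold (log2 change 0.84 ± 0.14, adjusted p = 0.0016), Phlda1 1.63-fold and Egr1 1.395-fold. Myc (0.03), Jun (0.20) and Dusp6 (0.21) did not pass.

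Early genes that respond to cyclic AMP did not all follow. The orphan nuclear receptors Nr4a1 (3.75, 3.87 and 4.73 TPM in FDMn and 6.54, 6.27 and 5.63 TPM in FD, log2 change −0.48 ± 0.11, adjusted p = 0.011) and Nr4a2 (4.29, 3.72 and 3.38 TPM in FDMn and 5.87, 6.62 and 6.32 TPM in FD, log2 change −0.60 ± 0.14, adjusted p = 0.013) fell. On the list of cyclic AMP and CREB targets, 5 of 19 tested genes were higher and 5 lower; without FDMn 1, FDMn 3 or FD 2, 3 were higher, and without FDMn 1, 3 were lower. Crem, a repressor that cyclic AMP induces, was 1.47-fold lower (log2 change −0.54 ± 0.14, adjusted p = 0.023). Ppp1r3c, which targets phosphatase 1 to glycogen, had 3.095, 3.02 and 3.92 TPM in FDMn libraries, against 9.76, 8.92 and 7.299 TPM in FD libraries (2.59-fold lower, log2 change −1.15 ± 0.13, adjusted p = 1.2e-04). Rgs2, a brake on G protein signalling, was 1.71-fold higher (log2 change 0.65 ± 0.16, adjusted p = 0.015). The glucocorticoid receptor targets likewise split, 4 higher and 6 lower of 20, with 2 higher without any single FDMn library, FD 2 or FD 3. The direct targets Tsc22d3 (−0.03), Fkbp5 (0.04) and Per1 (−0.09) did not pass.

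The AP-1 letters TGANTCA were in 7.81% of 32851 promoters and in 6.33% of tested genes. They were in 19 of 106 genes at least 2-fold higher (17.9%) and in 5 of 71 genes at least 2-fold lower (7.04%). Those higher included Hamp, Cd68, Ddit3, Emp1 and Ifit3, and those lower included Aldh1a1 and Mylk. None of the 20 promoters found for the early response list held them. In 149 promoters the AP-1 match overlapped a match to the antioxidant response element, and no test was made on these shares.

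Growth arrest genes and p53 targets went both ways, with 6 of 24 higher and 7 lower; without FDMn 2, 4 were lower, and in a fit of FDMn and FD libraries alone 3 were higher. Gadd45a, a stress-induced growth arrest gene, had 70.7, 83.6 and 75.9 TPM in FDMn libraries, against 24.9, 23.2 and 22.1 TPM in FD libraries, with no overlap (3.28-fold higher, log2 change 1.67 ± 0.11, adjusted p = 5.0e-06). It was nonetheless at 114 ± 12.8 TPM in FDI and 101 ± 15.5 TPM in Mock, above FDMn in both (adjusted p = 0.005 and 0.016). Its relative Gadd45g went the other way, with 43.9, 49.3 and 45.1 TPM in FDMn libraries, against 96.9, 88.5 and 75.3 TPM in FD libraries (1.88-fold lower, log2 change −0.89 ± 0.09, adjusted p = 6.7e-05). The polo-like kinase Plk3 had 93.8, 88.2 and 86.5 TPM in FDMn libraries, against 48.9, 46.1 and 46.2 TPM in FD libraries (1.901-fold higher, log2 change 0.91 ± 0.10, adjusted p = 1.3e-04). Mdm2, which degrades p53, rose 1.24-fold (log2 change 0.30 ± 0.07, adjusted p = 0.011). Cdkn1a, the p53-induced cell cycle inhibitor p21, did not pass (−0.01).

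Genes for plasma proteins of the acute phase, which the liver secretes in inflammation, were more often higher than lower. Of 26 genes, all tested, 11 were higher and 1 lower, with a median of 0.14, and 10 lay above all 9 other libraries. The 1 that was lower, Itih3, passed in none of the fits without FDMn 1, FDMn 3, FD 1 or FD 3. Their summed level was 25990 to 27610 TPM in FDMn, against 22550 to 23580 TPM in FD. Lipocalin 2 (Lcn2), which binds bacterial iron carriers, had 2048, 2086 and 2349 TPM in FDMn libraries, against 901, 1037 and 1004 TPM in FD libraries (2.203-fold higher, log2 change 1.14 ± 0.10, adjusted p = 1.6e-05). All fibrinogen chains rose. Fgb had 480.4, 553 and 465 TPM in FDMn libraries, against 342, 321 and 312 TPM in FD libraries (adjusted p = 1.9e-04). Fgg rose 1.69-fold and Fga 1.31-fold (adjusted p = 2.1e-04 and 0.017). Of the protease inhibitor genes of the Serpina3 cluster, Serpina3m had 135, 164 and 131 TPM in FDMn libraries, against 53.1, 53.8 and 72.7 TPM in FD libraries (2.398-fold higher, log2 change 1.26 ± 0.17, adjusted p = 4.6e-04). Serpina3c had 7.01, 7.03 and 5.85 TPM in FDMn libraries, against 1.51, 2.17 and 1.65 TPM in FD libraries (3.74-fold higher, log2 change 1.46 ± 0.18, adjusted p = 2.9e-04). Serpina3n rose 1.42-fold (log2 change 0.51 ± 0.07, adjusted p = 5.4e-04). Genes of this cluster are close copies of each other, so reads may be shared among them. Of 28 coagulation and complement genes 4 were higher and 3 lower; 2 were higher without FDMn 1, FDMn 3 or FD 2 and 1 without FDMn 2, and 1 was lower without FDMn 1 or FD 1. The summed level of the 12 Kupffer cell and macrophage markers, given above, was higher in every FDMn library than in every FD library, while none of the 4 tested passed, and their part in these results was not tested.

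Of 25 interferon-response genes 6 were higher and none lower, with a median of 0.13; without FDMn 1 or FD 1, 1 passed as lower. Ifit3 had 7.14, 13.1 and 5.24 TPM in FDMn libraries, against 1.82, 3.93 and 2.12 TPM in FD libraries, with FDMn 2 the highest and FDMn 3 nearest to FD (3.24-fold higher, log2 change 1.35 ± 0.31, adjusted p = 0.012), and 61.8% of its 31-base words are shared with Ifit3b or others. Isg15 had 39.6, 53.9 and 33.5 TPM in FDMn libraries, against 24.4, 21.2 and 27.6 TPM in FD libraries (1.73-fold higher, log2 change 0.75 ± 0.15, adjusted p = 0.0049), again highest in FDMn 2. The guanylate-binding protein gene Gbp2 rose 1.52-fold and Xaf1 1.62-fold. Chemokine and growth factor genes were higher in 6 of 25 tested and lower in 2, with a median of 0.21. The neutrophil chemokine Cxcl2 had 3.66, 7.42 and 5.37 TPM in FDMn libraries, against 1.69, 1.68 and 1.63 TPM in FD libraries (3.29-fold higher, log2 change 1.24 ± 0.23, adjusted p = 0.004), Cxcl1 rose 1.82-fold and the monocyte chemokine Ccl7 2.17-fold, while the activin antagonist follistatin (Fst) was 1.48-fold lower (log2 change −0.56 ± 0.10, adjusted p = 0.0027). The adhesion receptor Vcam1, chosen as 1 of the 20 highest genes, had 17.3, 16.8 and 18.5 TPM in FDMn libraries, against 5.89, 6.09 and 5.67 TPM in FD libraries (2.98-fold higher, log2 change 1.43 ± 0.11, adjusted p = 9.7e-06).

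Of 35 tested lysosomal genes of 37 listed, 7 were higher and 3 lower, and 8 lay above all 9 other libraries; without FDMn 1 or FD 1, 1 was lower. Cd68, a lysosomal membrane protein used as a macrophage marker, had 786, 756 and 841 TPM in FDMn libraries, against 354, 378 and 314 TPM in FD libraries (2.28-fold higher, log2 change 1.19 ± 0.09, adjusted p = 6.9e-06). The macrophage markers Adgre1, Clec4f and Cd163 were below the filter, at most 0.918, 0.301 and 0.0951 TPM in FDMn, and at most 0.328, 0.149 and 0.0292 TPM in FD. The summed macrophage markers moved with Cd68, and their part in it was not tested. C1qb, which was tested, had 3.35, 1.99 and 1.44 TPM in FDMn and 0.805, 1.79 and 1.17 TPM in FD with overlap (adjusted p = 0.29). The autophagy receptor Sqstm1 (1197, 1183 and 1140 TPM in FDMn and 785, 807 and 867 TPM in FD, log2 change 0.52 ± 0.06, adjusted p = 2.4e-04) and the proteases Ctsb and Ctsd (1.26-fold and 1.16-fold) rose, and the lysosomal lipase Lipa fell (log2 change −0.36 ± 0.08, adjusted p = 0.0077).

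Among cholangiocyte markers 4 of 10 were tested and 2 rose. Spp1, the secreted protein osteopontin, had 1333, 1524 and 1397 TPM in FDMn libraries, against 719, 657 and 665 TPM in FD libraries (2.08-fold higher, log2 change 1.06 ± 0.06, adjusted p = 1.2e-06). The biliary factor Sox9 had 25.6, 26.2 and 23.97 TPM in FDMn libraries, against 15.4, 18.7 and 16.98 TPM in FD libraries (1.48-fold higher, log2 change 0.54 ± 0.11, adjusted p = 0.0059). Cldn4 (−0.24) did not pass, and the defining keratins Krt7 and Krt19 were below the filter, at most 0.213 and 0.453 TPM in FDMn and at most 0.119 and 1.24 TPM in FD. The summed level of the list, nearly all of it Spp1, was 1421 to 1614 TPM in FDMn, 742 to 814 TPM in FD, 774 to 819 TPM in FDI and 1105 to 1151 TPM in Mock.

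Genes of detoxification were more often lower than higher. Of 19 tested glutathione transferases of 20 listed, 8 were lower and none higher, with a median of −0.31, and 8 lay below all 9 other libraries. Gstm3 had 37.7, 39.95 and 41.6 TPM in FDMn libraries, against 86.5, 84.4 and 81.9 TPM in FD libraries, with no overlap (2.12-fold lower, log2 change −1.07 ± 0.06, adjusted p = 1.4e-06). The abundant Gstm1 had 1354, 1279 and 1453 TPM in FDMn libraries, against 1912, 1933 and 1868 TPM in FD libraries (1.398-fold lower, log2 change −0.49 ± 0.06, adjusted p = 4.6e-04). The microsomal Mgst1 was 1.15-fold lower. Members of the Gstm family are near copies, and 37.7% of the 31-base words of Gstm3 and 28.8% of those of Gstm1 are shared with other genes.

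Targets of NRF2, the factor of the antioxidant response, were lower in 10 and higher in 2 of 25, with a median of −0.19. Gclc, the catalytic subunit of the enzyme that begins glutathione synthesis, had 671, 653 and 665 TPM in FDMn libraries, against 1191, 1096 and 1119 TPM in FD libraries (1.71-fold lower, log2 change −0.77 ± 0.06, adjusted p = 1.5e-05); FDMn was at 663 ± 9.01 TPM and Mock at 135 ± 9.76 TPM. Microsomal epoxide hydrolase (Ephx1) was 1.46-fold lower (log2 change −0.54 ± 0.05, adjusted p = 6.2e-05) and glucose-6-phosphate dehydrogenase (G6pdx) 1.72-fold lower (log2 change −0.69 ± 0.12, adjusted p = 0.0032). Both genes that rose act on thiols. Sulfiredoxin (Srxn1), which repairs peroxiredoxins, had 551, 499 and 525 TPM in FDMn libraries, against 243, 301 and 362 TPM in FD libraries (log2 change 0.81 ± 0.12, adjusted p = 7.0e-04). Thioredoxin reductase (Txnrd1) had 199, 195 and 190.2 TPM in FDMn libraries, against 144, 149.5 and 154 TPM in FD libraries (log2 change 0.38 ± 0.05, adjusted p = 4.7e-04). Nqo1 (−0.23) and Gclm (−0.18) did not pass. The letters of the antioxidant response element, TGACNNNGC, were in 9 of the 22 promoters found for this list (40.9%), against 12.4% of 32851 promoters and 17.0% of tested genes. They were in 2 of the 7 lower members with a promoter and in both higher members.

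Of 27 tested cytochrome P450 and flavin monooxygenase genes of 30 listed, 2 were higher and 5 lower; without FDMn 3, 1 was higher. Fmo2 had 0.708, 1.28 and 1.77 TPM in FDMn libraries, against 3.97, 5.76 and 9.499 TPM in FD libraries, with FD 3 the highest (log2 change −1.68 ± 0.32, adjusted p = 0.0043). Fmo5 had 33.03, 38.4 and 40.1 TPM in FDMn libraries, against 78.7, 63.6 and 74.6 TPM in FD libraries (1.94-fold lower, log2 change −0.94 ± 0.10, adjusted p = 6.8e-05). Cyp2a5, which hydroxylates coumarin, had 189, 232 and 206 TPM in FDMn libraries, against 407, 465 and 376 TPM in FD libraries (1.99-fold lower, log2 change −0.99 ± 0.09, adjusted p = 2.0e-05), although 54.6% of its 31-base words are shared with Cyp2a4 or others. Cyp3a13 rose, with 52.6, 52.3 and 52.9 TPM in FDMn libraries, against 29.03, 28.5 and 30.9 TPM in FD libraries (1.79-fold higher, log2 change 0.82 ± 0.06, adjusted p = 9.7e-06). The aldehyde dehydrogenases Aldh1a1 (263, 286 and 259 TPM in FDMn and 717, 667 and 646 TPM in FD) and Aldh1a7 (39.2, 44.98 and 41.3 TPM in FDMn and 113, 104 and 105 TPM in FD) fell 2.52-fold and 2.57-fold (adjusted p = 1.2e-06 and 1.2e-06). Selenbp2, a liver selenium-binding protein, had 12.4, 14.9 and 12.1 TPM in FDMn libraries, against 44.8, 38.1 and 52.95 TPM in FD libraries (3.45-fold lower, log2 change −1.71 ± 0.11, adjusted p = 3.9e-06), with 59.3% of its words shared with Selenbp1 or others. Against these, Uox, the urate oxidase of peroxisomes, had 422, 425 and 438 TPM in FDMn libraries, against 163, 158 and 196 TPM in FD libraries, every FDMn library above every other library (2.49-fold higher, log2 change 1.32 ± 0.11, adjusted p = 2.2e-05).

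Chaperones of the endoplasmic reticulum were more often lower than higher. Of 23 genes, all tested, 10 were lower and 1 was higher, with a median of −0.18; without FDMn 1, FDMn 3 or FD 1, 6 were lower. Calreticulin (Calr), a calcium-binding chaperone, had 529.9, 620.4 and 556 TPM in FDMn libraries, against 1120, 1139 and 985 TPM in FD libraries (1.901-fold lower, log2 change −0.93 ± 0.07, adjusted p = 1.2e-05). Hsp90b1, the HSP90 of this compartment, had 148, 158 and 149 TPM in FDMn libraries, against 249, 257 and 230.3 TPM in FD libraries (1.62-fold lower, log2 change −0.69 ± 0.06, adjusted p = 2.0e-05). Hspa5, the central chaperone BiP, had 390.4, 406 and 399.5 TPM in FDMn libraries, against 454, 439 and 429 TPM in FD libraries, a small fall (1.11-fold lower, log2 change −0.14 ± 0.04, adjusted p = 0.036). Atf6, a sensor of unfolded proteins, was the 1 that rose (log2 change 0.37 ± 0.08, adjusted p = 0.012), and without FD 3, 2 were higher. Of 17 cytosolic heat shock genes 5 were lower; without FDMn 1, FDMn 3 or FD 1, 2 were, and without FDMn 2, 3 were. The cochaperone Dnajb4 (20.5, 22.1 and 26.4 TPM in FDMn and 41.2, 43.2 and 35.6 TPM in FD, log2 change −0.78 ± 0.10, adjusted p = 3.6e-04) fell most clearly, and the major chaperone Hspa8 (log2 change −0.16 ± 0.04, adjusted p = 0.025) lost its call in 8 of 15 alternative analyses.

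Lipid and sugar genes changed in both directions. Plin2, the main coat protein of lipid droplets in hepatocytes, had 385, 344 and 359 TPM in FDMn libraries, against 155, 177 and 221 TPM in FD libraries (1.97-fold higher, log2 change 0.99 ± 0.10, adjusted p = 5.8e-05). The droplet protein Cidec rose 1.87-fold (log2 change 0.84 ± 0.12, adjusted p = 6.6e-04). Cpt1a, which admits fatty acids to mitochondria for oxidation, was 1.29-fold lower (log2 change −0.36 ± 0.06, adjusted p = 0.0018). Of 28 genes of fat oxidation and droplets 8 were lower and 3 higher; 3 were lower without FDMn 1, 4 without FDMn 3, and 5 without FDMn 2 or FD 1, and 5 were higher without FD 3. Of 24 cholesterol genes 5 were higher and 2 lower, among them Fdps, which makes farnesyl diphosphate, with 203, 209 and 203 TPM in FDMn libraries, against 117, 116 and 125 TPM in FD libraries (log2 change 0.78 ± 0.06, adjusted p = 9.6e-06). Pmvk, an earlier enzyme of the same pathway, fell, with 95.2, 110.3 and 90.5 TPM in FDMn libraries, against 189.5, 198 and 183 TPM in FD libraries (log2 change −0.94 ± 0.09, adjusted p = 5.8e-05). Of 20 glycolysis and glycogen genes 3 were higher and 7 lower; without any single FDMn library, FD 1 or FD 2, 4 were lower. Of 19 tested genes of fatty acid synthesis of 20 listed, 4 were lower and 1 higher, with a median of −0.13. Those lower included Elovl6 (log2 change −0.63 ± 0.10, adjusted p = 0.0014), Gpam (−0.52 ± 0.08, adjusted p = 0.0015) and Fads2 (−0.32 ± 0.04, adjusted p = 5.6e-04). Dgat2 was the 1 that was higher (0.71 ± 0.07, adjusted p = 8.0e-05). Srebf1 (−0.14) and Fasn (−0.37) did not pass.

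Genes of the FOXO and insulin axis were lower in 9 and higher in 2 of 24, with a median of −0.20. Socs2, an inhibitor of growth hormone signalling, had 22.7, 20.7 and 23.3 TPM in FDMn libraries, against 49.5, 42.5 and 46.9 TPM in FD libraries (2.08-fold lower, log2 change −1.03 ± 0.08, adjusted p = 1.0e-05). Txnip, an inhibitor of glucose uptake, had 1.597, 2.28 and 1.75 TPM in FDMn libraries, against 4.23, 4.67 and 5.34 TPM in FD libraries (2.53-fold lower, log2 change −1.001 ± 0.13, adjusted p = 4.5e-04). The fasting factor Klf15 was 1.502-fold lower (log2 change −0.57 ± 0.08, adjusted p = 5.1e-04), Sesn3, a FOXO target, 1.46-fold lower, and the insulin receptor substrate Irs2 1.36-fold lower (log2 change −0.41 ± 0.11, adjusted p = 0.028). Igfbp1, a plasma protein that insulin represses, did not pass (−0.01). Of 18 tested clock genes of 19 listed, 1 was higher, 2 were lower and 15 did not pass, beside 7.22% higher and 7.9% lower over all genes. The 1 that rose was Cry1, a repressor of the clock (13.99, 14.3 and 14.3 TPM in FDMn and 8.19, 9.54 and 8.37 TPM in FD, log2 change 0.65 ± 0.10, adjusted p = 0.0011). Those that fell were Nr1d2 and Arntl (1.54-fold and 1.32-fold lower).

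Of the remaining highest genes, Lce1d, a skin barrier protein gene at chromosome 3, 92685499 to 92687210, was at 4.42, 5.703 and 5.66 TPM in FDMn, at 0.363 TPM in FD 1 and listed at 0 in FD 2 and FD 3 (log2 change 2.49 ± 0.18, adjusted p = 6.9e-06). In Mock it was at 0.805 ± 0.0952 TPM and in FDI at 0.397 ± 0.181 TPM, and 40.9% of its 31-base words are shared with other genes. No library outside FDMn reached 1 TPM, so Lce1d met the filter on low values only through the group where it is high. Its adjusted p and its rank are therefore not independent of the filter. Emp1, an epithelial membrane protein, had 5.19, 6.77 and 5.53 TPM in FDMn libraries, against 0.629, 1.76 and 1.23 TPM in FD libraries (4.83-fold higher, log2 change 1.66 ± 0.24, adjusted p = 7.2e-04). The cathepsin W gene Ctsw had 7.83, 6.83 and 5.94 TPM in FDMn libraries, against 1.56, 1.35 and 1.64 TPM in FD libraries (4.52-fold higher, log2 change 1.64 ± 0.17, adjusted p = 8.1e-05). Of the remaining lowest genes, the scaffold protein of microvilli Vil1 had 4.16, 2.31 and 3.49 TPM in FDMn libraries, against 8.03, 9.21 and 11.2 TPM in FD libraries (2.85-fold lower, log2 change −1.29 ± 0.18, adjusted p = 5.1e-04). The carbonic anhydrase Car14 had 1.71, 1.61 and 1.61 TPM in FDMn libraries, against 5.86, 5.51 and 5.53 TPM in FD libraries (3.43-fold lower, log2 change −1.33 ± 0.12, adjusted p = 3.2e-05). The organic anion carrier Slco1a4 had 3.19, 4.22 and 3.195 TPM in FDMn libraries, against 10.9, 9.203 and 10.5 TPM in FD libraries (2.89-fold lower, log2 change −1.31 ± 0.19, adjusted p = 6.9e-04).

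Other genes of the rule changed at lower levels or have uncertain reads. The tumour necrosis factor receptor family gene Tnfrsf22 had 10.8, 7.78 and 8.11 TPM in FDMn libraries, against 3.16, 2.07 and 2.71 TPM in FD libraries (3.37-fold higher, log2 change 1.44 ± 0.14, adjusted p = 5.4e-05), and 38.5% of its 31-base words are shared. The acetyltransferase family gene Nat8f4 had 9.303, 10.95 and 8.15 TPM in FDMn libraries, against 2.92, 2.43 and 2.92 TPM in FD libraries (3.44-fold higher, log2 change 1.47 ± 0.13, adjusted p = 2.6e-05), with 28.5% shared. Rin1, a regulator of RAS and RAB5, had 23.2, 18.1 and 17.6 TPM in FDMn libraries, against 3.63, 11.01 and 8.12 TPM in FD libraries (2.59-fold higher, log2 change 1.36 ± 0.28, adjusted p = 0.0066). Arhgap27, a GTPase-activating protein, had 8.78, 10.0 and 7.19 TPM in FDMn libraries, against 3.07, 2.42 and 2.93 TPM in FD libraries (3.09-fold higher, log2 change 1.34 ± 0.13, adjusted p = 4.5e-05). Kalrn, a guanine nucleotide exchange factor, had 4.13, 3.01 and 3.18 TPM in FDMn libraries, against 10.2, 11.1 and 8.56 TPM in FD libraries (2.89-fold lower, log2 change −1.303 ± 0.12, adjusted p = 2.6e-05). The chromatin protein gene Hmga1 had 648, 634 and 616 TPM in FDMn libraries, against 360.1, 354 and 373 TPM in FD libraries (1.75-fold higher, log2 change 0.80 ± 0.07, adjusted p = 1.6e-05), with 62.1% of its words shared with Hmga1b or others. The angiotensin precursor gene Agt (321, 318 and 312 TPM in FDMn and 495, 432 and 543 TPM in FD) and the peroxide-removing Prdx6 (264, 292 and 279.5 TPM in FDMn and 472, 416 and 472 TPM in FD) were 1.55-fold and 1.63-fold lower.

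The remaining lists stand beside 7.22% of genes higher and 7.9% lower over all genes tested. The share lower among bile acid genes, and the shares higher among mitochondrially encoded and ribosome biogenesis genes, were above these. The share lower among nuclear respiratory chain genes, and both shares among targets of hypoxia-inducible factor, were slightly above them. Of 31 nuclear genes of the respiratory chain 3 were lower and none higher, and without FDMn 1 or in a fit of FDMn and FD libraries alone none was lower. Of the 13 mitochondrially encoded genes 3 were higher and 1 lower; without FDMn 3, 1 was higher, and mt-Nd3 and mt-Atp6 share 98.1% and 99.5% of their words with other genes. Of 23 ribosome biogenesis genes 4 were higher and none lower, among them Nop56, a box C/D particle protein, with 127, 124 and 124 TPM in FDMn libraries, against 106, 107 and 105 TPM in FD libraries (1.18-fold higher, log2 change 0.23 ± 0.04, adjusted p = 0.0041); in a fit of FDMn and FD libraries alone 2 were higher. Of 22 tested targets of hypoxia-inducible factor 2 were higher and 2 lower, and without FD 3, 5 were lower. Of 20 tested bile acid genes 5 were lower and none higher; without FDMn 1, FDMn 3, FD 1 or FD 3, 3 were lower.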

How the data were processed

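RNA of 12 libraries was measured, 3 in each of 4 groups, which were assigned from the labelled treatment. The authors deposited TPM values per gene, made with kallisto 0.44.0 on GRCm38.p6, per the submitters' processing notes, which also name DESeq2 without its role. For the annotation release, the strand setting and the step from transcripts to genes, the tool setting is not given in the sources used here. TPM keeps no depth, so the depth of the libraries is unknown, no counting intervals are given, and a value of 0 is only listed at 0.

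From these values log2(TPM + 1) was fitted with limma 3.58.1 in R 4.3.3, with a mean for each of the 4 groups, an intensity trend and Benjamini-Hochberg adjustment over the 11544 genes with at least 1 TPM in at least 3 libraries. The threshold was an adjusted p of 0.05. Every adjusted p in the text is from this fit. It was also run on simulated data with known changes, drawn as independent normal noise on the log2 scale. Such data cannot show how the fit treats values near 0 or libraries from a single mouse.

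The members and the gene lists were chosen with earlier results of these data known. Genes were named by rule: the 20 highest and the 20 lowest log2 changes among genes past the threshold with a mean of at least 5 TPM in FDMn or FD and no overlap of replicates, leaving out predicted genes; the 10 most abundant in each direction with a ratio of at least 1.5; in each list, the members with the lowest adjusted p, at most 4; and members that did not pass where their values are given; and a short list of metal and fasting genes. Other list members, Cav1, Nexn, Smad7, Id1 and Gm13889 were named after their values were seen.

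Coordinates are from GENCODE M21 (GRCm38), which matched 35933 of 36144 symbols (99.4%). Shared 31-base words were counted in its transcripts. Promoters are from RefSeq on GRCm38.p6, and motifs were searched on both strands with no test. Alternatives were other pseudocounts, filters, scalings and fits, a replicate block, and leaving out each FDMn and FD library in turn. Values of some genes on these lists are not reported here.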

Additional observations from a re-analysis of the deposited data

How the results depend on the processing

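Genes higher in FDMn than in FD numbered 834 and genes lower in FDMn than in FD 912, and leaving out each FDMn or FD library in turn gave 478 to 1005 higher and 540 to 1020 lower. The number without FDMn 2 was 538 higher. Of genes at least 2-fold changed (137 higher, 103 lower), leaving out a library gave 100 to 185 higher and 81 to 125 lower. Without a filter on low values 212 were at least 2-fold higher, and with at least 5 TPM in 3 libraries 70 were higher and 64 lower; the cause was not tested. The other counts stayed within 1.5 times under other pseudocounts, scalings and fits, with 562 higher and 622 lower in a fit of FDMn and FD libraries alone. Without FD 3, 2025 genes passed, 1495 of them among the 1746, and without FDMn 1, 1018 passed, 989 of them among the 1746. Replicate numbers did not pair the libraries: the correlations of deviations of same-numbered FDMn and FD libraries were −0.0678, −9.65e-05 and −0.0976. With the replicate number as a block 757 genes were higher and 826 lower, 127 and 93 of them at least 2-fold. Of 181 named genes past the threshold, 156 kept their call and direction in each of the 15 alternatives that tested them, and none reversed; the filter of at least 5 TPM tested 174 of the 181. Changes of sign were found for Slc39a8, which did not pass (log2 0.028 without FDMn 1 and −0.046 to 0.050 over FD libraries left out), and for Mt2, which did not pass (−0.14 to 0.011 over FD libraries left out). Depth is unknown, so what low levels can show is not known.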

Other observations

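The largest change of any tested gene lay outside the genes named by rule, since predicted genes were left out there. Gm13889, a predicted protein-coding gene at chromosome 2, 93955810 to 93957201 (GRCm38), had 36.2, 32.9 and 33.4 TPM in FDMn libraries, against 1.90, 1.23 and 2.01 TPM in FD libraries. All FDMn libraries were above all 9 others, a 19.9-fold higher mean than in FD (log2 change 3.71 ± 0.21, adjusted p = 1.2e-06). It averaged 9.94 ± 3.08 TPM in FDI and 12.1 ± 2.97 TPM in Mock. It was chosen after its values were seen.

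The predicted gene Gm20594, 1 of the 10 most abundant higher genes, had 1795, 1853 and 1584 TPM in FDMn libraries, against 504, 562 and 513 TPM in FD libraries (3.31-fold higher, log2 change 1.73 ± 0.08, adjusted p = 9.0e-07). A share of 10.0% of its 31-base words is found in the mitochondrial ribosomal RNA gene mt-Rnr2, so its level is uncertain.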
